A study of Homo sapiens with 6 samples.

Results

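The subject is a set of 51 genes for lysosomal hydrolases and lysosomal membrane proteins, chosen by name, in HCT116, a human colorectal carcinoma cell line. Their RNA was compared between cells carrying the label Rab27B KO, in which the gene for the secretory-vesicle GTPase RAB27B was targeted by CRISPR/Cas9, and wild-type cells, with 3 biological replicates of each genotype. All 6 cultures were untreated and grew for 48 hours before RNA was taken, and the labels do not say whether the edited line is a single clone. The values come from a pair of tables of the authors' own comparison, which name 7681 genes with a q-value (an adjusted p-value) below 0.05, a log2 fold change of KO-labelled over wild-type cells and no value per sample. Of the 51 genes, 35 stood in these tables. Values in single samples, their spread and the read depth were therefore not analysed here, and a gene that is in neither table may have missed the threshold or may not have been tested.

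The transcript of the targeted gene ran opposite to its label. RAB27B itself was listed as higher in KO-labelled cells, with a log2 fold change of 5.20 per the authors' deposited table. Every direction below is that of the libraries labelled Rab27B KO relative to the libraries labelled wild type. If the labels or the direction of the comparison were exchanged, every direction would turn, and of the listed lysosomal genes 5 would be higher and 30 lower. Of 7 colon epithelial markers 5 were listed, the keratins KRT8, KRT18 and KRT19 as higher and EPCAM and CDX2 (the last chosen after its value was seen) as lower, and since only changed genes are listed, this does not show whether the remaining markers were expressed.

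Lysosomes are acidic organelles in which hydrolases break down proteins, glycans and lipids that arrive by endocytosis, phagocytosis and autophagy. Most of the soluble enzymes receive a mannose 6-phosphate tag in the Golgi and are carried to the lysosome by receptors for that tag. The lysosomal membrane holds heavily glycosylated proteins, a proton pump, channels and transporters that export the breakdown products. Transcription factors of the MiT/TFE family, such as TFEB, bind an E-box-like sequence known as the CLEAR element in the promoters of many lysosomal genes.

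Most of the listed lysosomal genes were higher in KO-labelled cells, and most of the differences were small. Of the 51 genes, 30 rose, 5 fell and 16 were in neither table. The 35 listed genes made up 68.6% of the set. Of all RefSeq protein-coding genes 37.9% were listed, a background that also contains genes HCT116 cells do not express. Among the listed lysosomal genes 85.7% were higher, against 50.7% of all listed genes, and 49.3% of all listed genes were lower. Their median log2 fold change, computed from the authors' deposited table, was 0.43, against 0.12 over all listed genes. Within the 30 higher genes the median was 0.50. All higher genes had a median of 0.41 and all lower genes one of -0.41. A median over both directions therefore depends largely on the share of higher genes and is not a size of change. A change of at least 1.5-fold was listed for 9 higher and 2 lower lysosomal genes, while 15.4% of all listed genes were at least 1.5-fold higher and 15.4% at least 1.5-fold lower. The q-values of 33 of the 35, or 94.3%, were below 0.01, against 84.9% of all listed genes. The largest of the set, that of SGSH, was 0.0427 per the authors' deposited table.

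**Figure D1:**
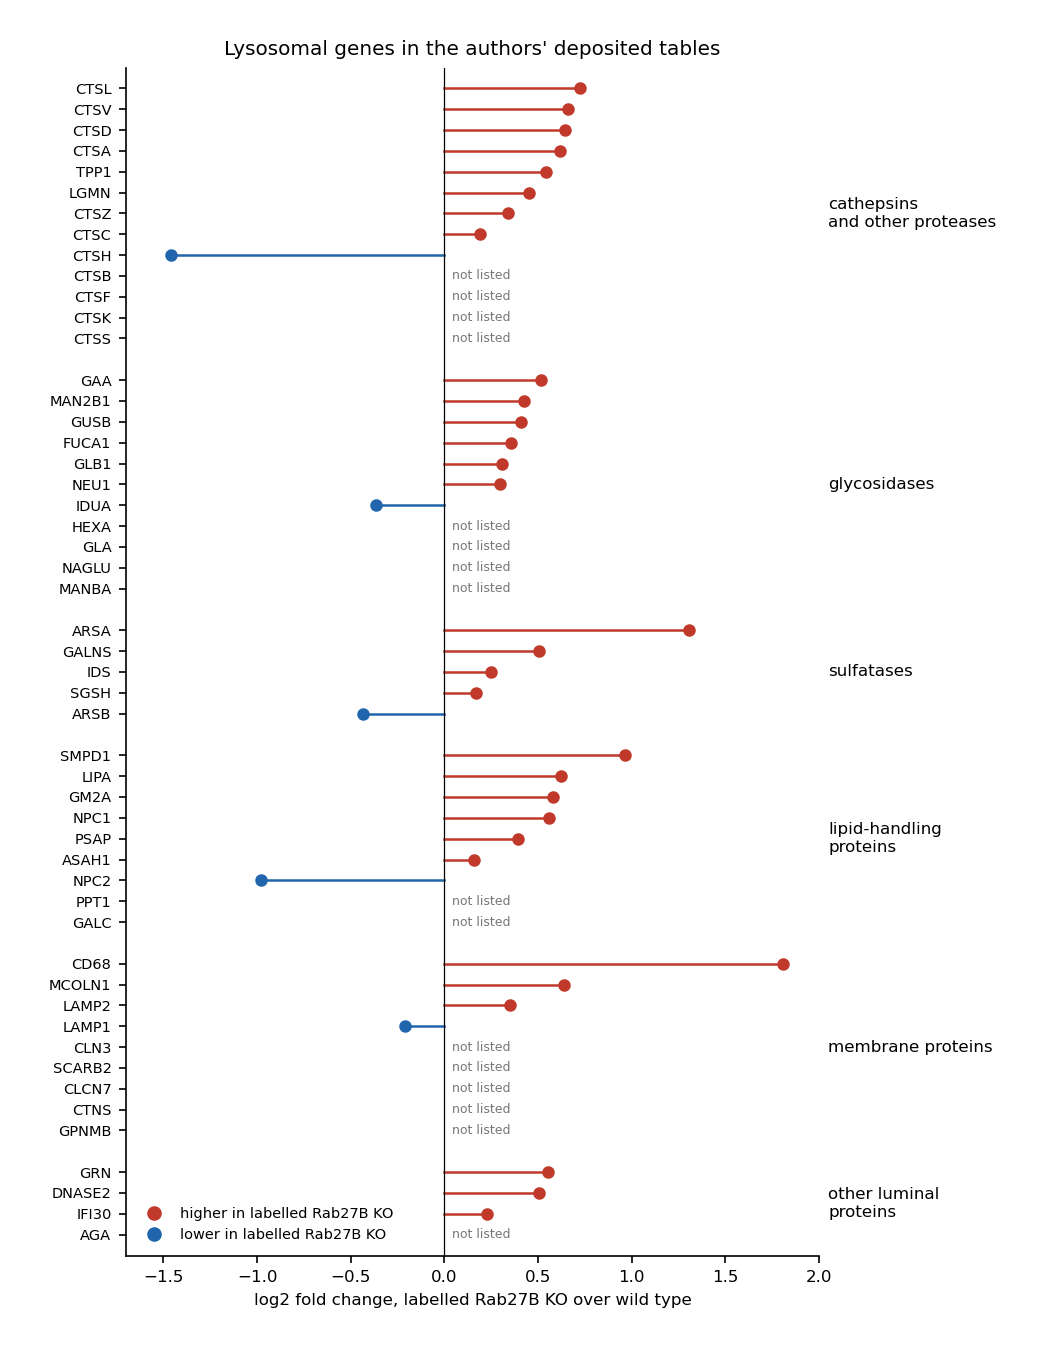
Log2 fold change of each of the 51 lysosomal genes (horizontal axis, KO-labelled over wild-type cells, from the authors' deposited tables), by functional group. Genes in neither table carry the words "not listed" and no value. Of the 35 points, 30 lie right of 0 and 5 left of it, with CD68 farthest right at 1.81 and CTSH farthest left at -1.46.

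**Figure D2:**
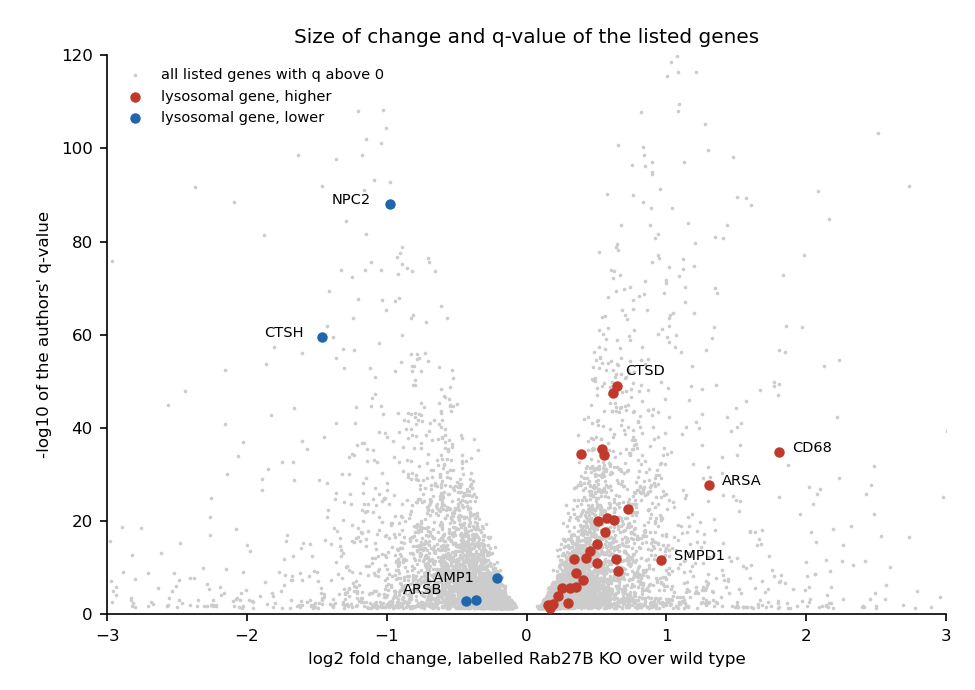
Log2 fold change (horizontal axis) against -log10 of the authors' q-value (vertical axis) for the listed genes, with the lysosomal genes in colour; 17 genes with a q-value of 0 are not drawn and 244 genes lie beyond the axes. The lysosomal genes lie within the cloud of all listed genes, and the lower genes NPC2 and CTSH have the smallest q-values of the set.

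Some of these genes share a sequence in their promoters. In 300-base windows from 250 bases before to 50 bases after the RefSeq start site (build GRCh38.p14), found for 39 of the 51 genes, the palindromic CLEAR-like motif TCACGTGA was present in 6, or 15.4%. Over the windows of all protein-coding genes it was present in 226 of 15843, or 1.43%. The shorter E-box core CACGTG, which lies inside the longer motif and is also its own reverse complement, was present in 11 of the 39 windows, or 28.2%, and in 8.88% of all windows. The CLEAR element was defined in the literature on lysosomal promoters, so its presence in this set is not independent of how such genes are known. The sequences of the 5 listed genes with the longer motif are shown because they hold genes of both directions. They are written 5′ to 3′ in the sense of the gene's transcript, with the motif in capitals. Where the surrounding bases are an exon in GENCODE release 29, 30 bases are shown.
CTSA (chr20:45891298-45891327, + strand): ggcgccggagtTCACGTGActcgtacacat
GAA (chr17:80101493-80101522, + strand): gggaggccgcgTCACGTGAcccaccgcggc
GALNS (chr16:88857104-88857133, - strand): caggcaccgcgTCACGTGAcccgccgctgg
MCOLN1 (chr19:7522522-7522623, + strand): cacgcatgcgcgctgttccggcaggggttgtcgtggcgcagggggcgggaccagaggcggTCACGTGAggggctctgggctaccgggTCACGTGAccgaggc
LAMP1 (chr13:113297150-113297238, + strand): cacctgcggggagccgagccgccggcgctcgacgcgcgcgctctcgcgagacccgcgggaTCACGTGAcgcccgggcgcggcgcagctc

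Of these, CTSA, GAA, GALNS and MCOLN1 were higher and LAMP1 was lower in KO-labelled cells, and the sixth gene with the motif, CLN3, was in neither table. LAMP1 was added to the shown promoters after its value was seen. GAA and LAMP1 each hold 1 more motif outside the bases shown. The bases shown for GALNS overlap an exon of the neighbouring gene TRAPPC2L, and those shown for CTSA overlap an annotated exon of CTSA itself. Among the listed genes of any function whose window held the motif, 55 of 129 were higher, or 42.6%. Of all listed genes with a window, 3135 of 6189 were higher. Over listed genes of any function, the median log2 fold change was -0.20 with the motif and 0.12 without it. Within the set, the 5 listed genes with the motif had a median log2 fold change of 0.51, and the 24 listed genes without it one of 0.42. These are descriptions of letters in a window, and binding was not measured.

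**Figure D3:**
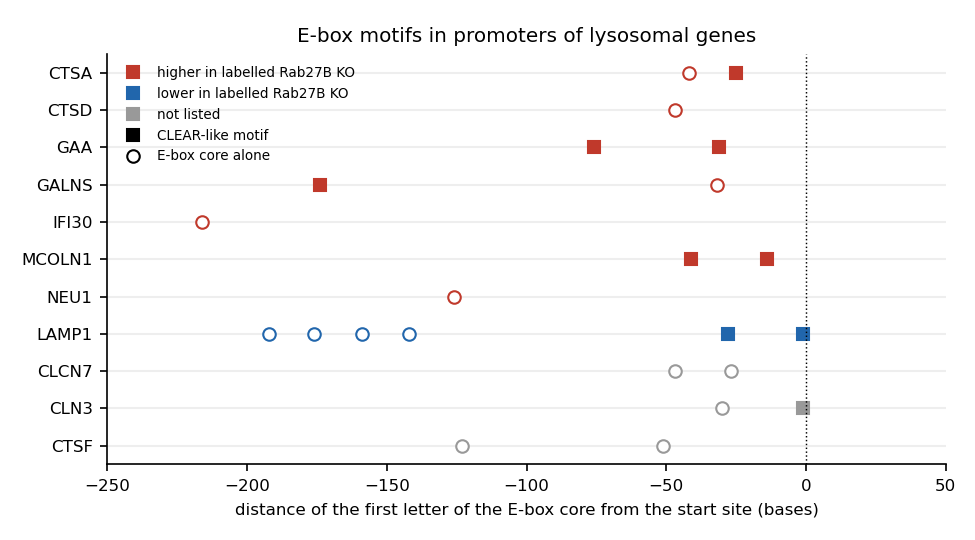
Places of the E-box core in the promoter windows of the 11 lysosomal genes that hold it (horizontal axis, bases from the start site at 0). Filled squares are cores inside the CLEAR-like motif, open circles are cores alone, and colour gives the direction in KO-labelled cells. LAMP1, a lower gene, holds the most cores. The squares of CTSA, MCOLN1, CLN3 and LAMP1 and the nearer square of GAA, at -31 bases, lie close to the start site.

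Among the proteases, 8 of 13 rose, 1 fell and 4 were not listed. The largest rise was that of CTSL, a cysteine endopeptidase, with a log2 fold change of 0.73 (1.65-fold, q = 2.33e-23) per the authors' deposited table. Its close paralog CTSV was 1.58-fold higher (q = 4.46e-10) per the authors' deposited table. CTSD, the main aspartic protease of lysosomes, was 1.56-fold higher (q = 9e-50) per the authors' deposited table. The rises thus included enzymes of more than one catalytic class. CTSA, a serine carboxypeptidase that also stabilises β-galactosidase and sialidase in a complex, was 1.53-fold higher (q = 3.42e-48) per the authors' deposited table. TPP1, which removes tripeptides from the ends of proteins, was 1.46-fold and LGMN, the asparagine-specific endopeptidase that processes cathepsin precursors, 1.37-fold higher per the authors' deposited table. CTSZ, a carboxypeptidase, and CTSC, a dipeptidyl peptidase, had the smallest rises, of 1.26-fold and 1.14-fold per the authors' deposited table. CTSH went the other way. This aminopeptidase gene (gene ID 1512; GRCh38.p14 chromosome 15, 78921058 to 78945046) was 2.75-fold lower in KO-labelled cells, a log2 fold change of -1.46 with q = 3.93e-60 per the authors' deposited table, and no other gene of the set fell as far. CTSB, CTSF, CTSK and CTSS were in neither table, and neither were any of 4 osteoclast markers, a cell type in which CTSK is abundant.

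CTSL and CTSV are paralogs, but of the 50-base words of the CTSL transcript only 0.752% occurred in any other GENCODE gene, and of those of CTSV 0.398%. Shared sequence was larger elsewhere in the set. For CD68, IFI30 and CTSD, 92.6%, 87.5% and 60.6% of the 50-base words also occurred in a transcript annotated under another gene name. For MAN2B1, IDS and TPP1 the shares were 33.2%, 22.9% and 17.5%. The exons of CTSA overlapped exons of other genes on the opposite strand over 28.5% of their length and those of IDUA over 13.4%. For GLB1 the overlap was 8.11% on the opposite and 1.90% on the same strand, together just over 10%. How the authors counted such reads is not stated in the labels or headers, so the values of these 9 genes are uncertain where reads were shared.

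Glycosidases, which remove sugars from glycoproteins, glycolipids and glycosaminoglycans, were higher in 6 of 11 cases and lower in 1, and 4 were not listed. All 6 rises were below 1.5-fold. GAA, the acid α-glucosidase that degrades glycogen, had the largest, 1.43-fold (q = 9.58e-21) per the authors' deposited table. MAN2B1, an α-mannosidase, was 1.34-fold, GUSB, the β-glucuronidase, 1.33-fold and FUCA1, an α-fucosidase, 1.28-fold higher per the authors' deposited table. The β-galactosidase gene GLB1 and the sialidase gene NEU1, whose products form the complex with the CTSA protein, were 1.24-fold and 1.23-fold higher per the authors' deposited table, so all 3 genes of that complex were listed as higher. IDUA, the α-iduronidase of heparan and dermatan sulfate breakdown, was lower at a log2 fold change of -0.36 (1.29-fold, q = 7.71e-04) per the authors' deposited table. HEXA, GLA, NAGLU and MANBA were in neither table.

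All 5 sulfatases were listed, 4 higher and 1 lower. These enzymes remove sulfate groups from glycosaminoglycans and sulfatide. ARSA, which acts on sulfatide (gene ID 410; chromosome 22, 50622754 to 50628152), had a 2.48-fold rise, a log2 fold change of 1.31 with q = 1.79e-28 per the authors' deposited table. It was 1 of only 2 lysosomal genes that were at least 2-fold higher, the other being CD68. GALNS, which acts on keratan and chondroitin sulfate, was 1.42-fold higher (q = 7.57e-16) per the authors' deposited table. IDS and SGSH, both of heparan sulfate breakdown, were 1.19-fold and 1.12-fold higher per the authors' deposited table, and the q-value of SGSH was close to the threshold. ARSB, which acts on dermatan and chondroitin sulfate, was 1.35-fold lower, a log2 fold change of -0.44 with q = 0.00131 per the authors' deposited table. The heparan and dermatan sulfate pathways therefore held members of both directions, with IDS and SGSH higher and IDUA and ARSB lower.

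Of 9 lipid-handling genes 6 rose, 1 fell and 2, PPT1 and GALC, were not listed. SMPD1, the acid sphingomyelinase, was 1.95-fold higher (log2 fold change 0.96, q = 2.21e-12) per the authors' deposited table. LIPA, the acid lipase that frees cholesterol and fatty acids, was 1.54-fold higher per the authors' deposited table (q = 6.84e-21). GM2A, the activator of ganglioside breakdown, and PSAP, the precursor of the saposins, were 1.49-fold and 1.31-fold higher per the authors' deposited table. ASAH1, the acid ceramidase, had the smallest rise of the set, 1.11-fold with q = 0.0139 per the authors' deposited table. The cholesterol-export pair split. NPC1, the membrane protein that moves cholesterol out of the lysosome, was 1.47-fold higher (q = 2.88e-18) per the authors' deposited table. NPC2, the soluble carrier that hands cholesterol to NPC1 (gene ID 10577; chromosome 14, 74479935 to 74493512), was 1.97-fold lower, a log2 fold change of -0.98 per the authors' deposited table. Its q-value of 7.07e-89 was the smallest of the set and ranked 145 among the 7681 listed genes per the authors' deposited table.

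Of 9 membrane protein genes 3 rose, 1 fell and 5 were not listed. CD68, a glycoprotein of late endosomes and lysosomes that is abundant in macrophages (gene ID 968; chromosome 17, 7579638 to 7582111), was 3.51-fold higher, a log2 fold change of 1.81 with q = 1.31e-35 per the authors' deposited table. Of 18 macrophage markers 3 were listed, LYZ and MSR1 as higher with log2 fold changes of 1.34 and 3.96 and CD74 as lower with -1.12 per the authors' deposited table. The other 15, CD14, CD163, CSF1R and PTPRC among them, were in neither table. All 6 samples were labelled as HCT116 cells. Of the 50-base words of CD68, 92.6% also occurred under another gene name, so its value is uncertain where reads were shared. MCOLN1, the calcium channel of the lysosomal membrane, was 1.56-fold higher (q = 1.36e-12) per the authors' deposited table. The 2 major lysosomal membrane glycoproteins, which are related in structure, differed in direction. LAMP2, also the receptor of chaperone-mediated autophagy, was 1.28-fold higher (q = 1.90e-09) per the authors' deposited table. LAMP1 (gene ID 3916; chromosome 13, 113297239 to 113323672) was 1.16-fold lower, a log2 fold change of -0.21 with q = 1.64e-08 per the authors' deposited table. CLN3, SCARB2, CLCN7, CTNS and GPNMB were in neither table, and of 6 melanocyte markers, a cell type in which GPNMB is abundant, 1, PMEL, was listed, with a log2 fold change of 0.45 per the authors' deposited table.

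Of 4 other luminal proteins 3 rose and 1, the aspartylglucosaminidase gene AGA, was not listed. GRN, the precursor of granulins, was 1.47-fold higher (q = 8.30e-35) and the acid nuclease gene DNASE2 1.42-fold higher (q = 1.13e-11) per the authors' deposited table. IFI30, an interferon-inducible thiol reductase that helps unfold proteins for cleavage, was 1.17-fold higher (q = 1.59e-04) per the authors' deposited table.

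Listed genes near CTSH, IDUA and LAMP1 were mostly lower themselves, and those near ARSB and NPC2 were split nearly evenly. The median share of lower genes among the listed neighbours was 80.0% for the 5 lower genes and 41.5% for the 30 higher genes. Of all listed genes 49.3% were lower. Within 5 Mb on either side, 40 of 50 other listed genes around CTSH on chromosome 15 were lower. Around IDUA on chromosome 4 it was 27 of 32, and around LAMP1 on chromosome 13 it was 15 of 17. Those 3 chromosomes as a whole leaned the same way, with 80.2%, 83.2% and 86.5% of their listed genes lower. The median log2 fold change of the listed neighbours was -0.38 around CTSH, -0.44 around IDUA and -0.42 around LAMP1. The fall of CTSH was thus larger than that median, and those of IDUA and LAMP1 were smaller. Around ARSB on chromosome 5 and NPC2 on chromosome 14 the split was nearly even, with 13 of 23 and 17 of 31 neighbours lower. Among the 30 higher genes, the neighbours were mostly lower for 6. One of these was GUSB on chromosome 7, where 9 of 12 neighbours were lower. Without chromosomes 4, 7, 13 and 15, chosen for their lean in these data, 29 genes of the set were higher and 2, ARSB and NPC2, were lower. Leaving them out also raises the share of higher genes among all listed genes. The part of position in these values was not tested.

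**Figure D4:**
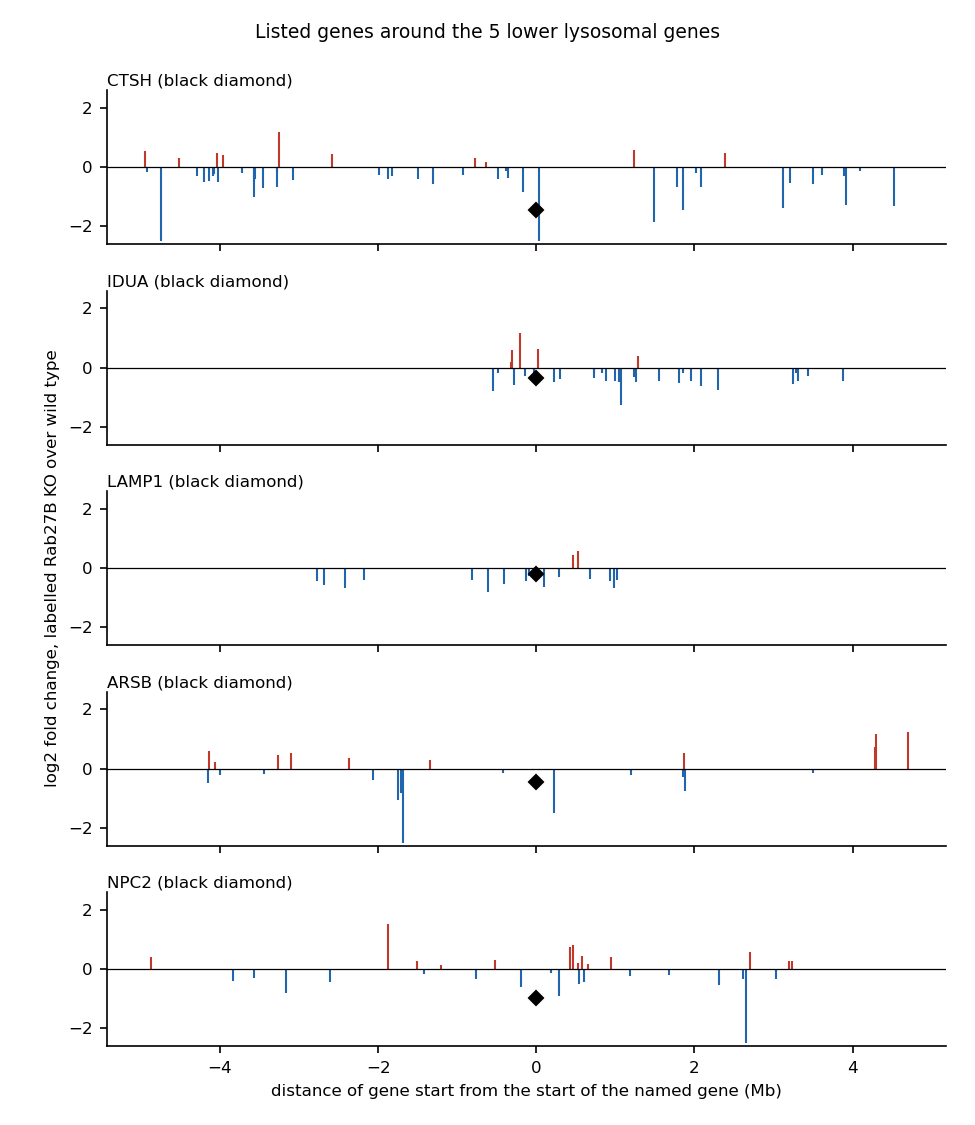
Log2 fold change of listed genes (vertical axis, bars, drawn to at most 2.5 in size) by distance of their start from each of the 5 lower lysosomal genes (horizontal axis, Mb, black diamonds at 0). Bars below 0 prevail around CTSH, IDUA and LAMP1, with medians of -0.38, -0.44 and -0.42, and both directions occur around ARSB and NPC2.

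Transcript length, on which q-values from read counts depend, was set beside direction. The longest protein-coding transcript had a median length of 2818 bases for all higher genes and 4293 bases for all lower genes. For the lysosomal genes the medians were 2408 bases for the 30 higher, 2190 bases for the 5 lower and 3871 bases for the 16 genes that were not listed. The part of transcript length in the direction of change was not tested.

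Genes outside the set that work in the same organelle were, among those listed, also mostly higher where they encode hydrolases, membrane proteins or the proton pump, and evenly split where they serve the delivery of enzymes. Over all listed genes 50.7% were higher, and 37.9% of RefSeq protein-coding genes were listed. The listed share was 58.3% for the further hydrolases, 46.9% for membrane proteins and 81.25% for the proton pump. Among the lists given below it was 54.5% for enzyme delivery, 44.4% for cathepsin inhibitors and 42.9% for MiT/TFE factors and their control. Of 24 further hydrolase genes 13 were higher, 1 lower and 10 not listed. Of 32 further membrane protein genes 13 were higher, 2 lower and 17 not listed. OSTM1, the partner subunit of the unlisted chloride transporter CLCN7, was 2.97-fold higher (q = 1.84e-46), and LAMP3, a relative of LAMP1 and LAMP2, 2.23-fold higher per the authors' deposited table. These were the largest rises of that list, whose 13 higher genes had a median log2 fold change of 0.38. Its 2 lower genes, chosen after their values were seen, were ABCD4 at -0.61 and TMEM106B at -0.35 per the authors' deposited table. For the proton pump that acidifies the lysosome, 12 of 16 genes were higher and 1 was lower. ATP6V1E1 was 1.54-fold higher (q = 2.31e-39) per the authors' deposited table. The lower gene, ATP6V0A2, chosen after its value was seen, had a log2 fold change of -0.36 per the authors' deposited table.

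Enzyme delivery had 6 of 22 genes higher and 6 lower. The sorting receptor gene SORT1 was 1.74-fold lower (q = 5.59e-43), and AP3S1, a subunit of the AP-3 adaptor, 1.85-fold higher (q = 6.05e-88) per the authors' deposited table. All 3 GGA adaptors, which load mannose 6-phosphate receptors into vesicles at the Golgi and were chosen after their values were seen, were lower, with log2 fold changes of -0.29 for GGA1, -0.30 for GGA2 and -0.27 for GGA3 per the authors' deposited table. The AP-1 adaptor genes AP1M1 and AP1B1 were higher, at 0.47 and 0.26 per the authors' deposited table. AP1G1, chosen after its value was seen, was lower at -0.16 per the authors' deposited table, and AP1S1 was not listed. The receptor genes M6PR and IGF2R were in neither table. Cathepsin inhibitors also split, with 2 of 9 higher and 2 lower. CST3 (cystatin C) was 1.60-fold and CSTB 1.31-fold higher, whereas CSTA was 2.43-fold and CST6 1.19-fold lower per the authors' deposited table.

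Of 21 genes for MiT/TFE factors and their control by mTORC1, the kinase complex that keeps these factors out of the nucleus, 8 were higher, 1 lower and 12 not listed. The lower gene was MTOR, the kinase of that complex, chosen after its value was seen. Its log2 fold change was -0.16 (q = 0.00252) per the authors' deposited table. RRAGD and RRAGC, GTPases that bring mTORC1 to the lysosome, were 1.38-fold and 1.36-fold higher per the authors' deposited table. The factor genes TFEB and MITF, chosen after their values were seen, had log2 fold changes of 0.49 (q = 9.78e-04) and 0.61 (q = 0.0227) per the authors' deposited table, and TFE3 and TFEC were in neither. An RNA level does not give the location of such a factor in the cell. Whether any of these lists differed in direction from another was not tested.

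**Figure D5:**
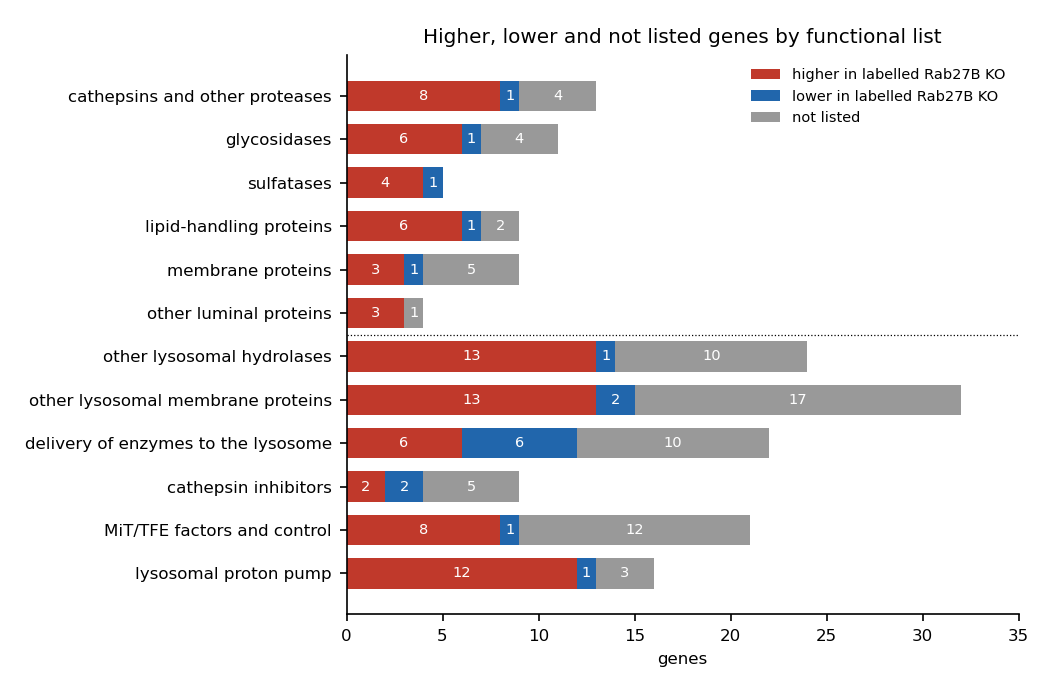
Number of genes (horizontal axis) that were higher, lower or not listed in KO-labelled cells, for the 6 groups of the set (above the dotted line) and 6 further lists (below it). Higher genes outnumber lower ones in 10 of the 12 lists; delivery of enzymes, with 6 and 6, and cathepsin inhibitors, with 2 and 2, are even.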

How the data were processed

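RNA sequencing compared 3 HCT116 cultures labelled Rab27B KO with 3 labelled wild type. Libraries were made by a sequencing service on the DNBSEQ platform, per the labels' protocols. Per the submitters' processing notes, the tools included HISAT and Bowtie2 and the build was GRCh38; counting, scaling and test were not given in the sources used here. Per gene, the authors deposited a log2 fold change with its q-value (an adjusted p-value), and for higher genes also the linear ratio, with the comparison stated per the file headers. No test was added; every deposited q-value was below 0.05, the largest being 0.0499963. Read depth is unknown, so no interval or detection limit is given. Replicates are biological per the submitters' design text.

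The members and lists were chosen with earlier results of these data known. Members were matched by printed symbol. Gene IDs were looked up in RefSeq (GRCh38.p14; 7656 of 7681 matched). Named genes were all listed members, RAB27B, and up to 4 genes per further list with the smallest q-value; others are said to be chosen after their values were seen. Some items that this rule would name are not reported here. Promoter sequences are from RefSeq; 37 of the 39 windows ended in bases found in a GENCODE release 29 transcript of that gene in the same sense, over the last 30 bases. Transcript lengths, exon overlaps and 50-base words came from GENCODE release 29. Folds are 2 to the power of the log2 value. Counting and motif search were tested on simulated data. Python 3.11.15, pandas 2.3.3, numpy 2.4.6 and matplotlib 3.10.9 were used.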

Additional observations from a re-analysis of the deposited data

How the results depend on the processing

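The counts of 30 higher and 5 lower genes were the same when genes were matched by gene ID or limited to mRNA. Every listed gene of the set was of type mRNA, so the latter limit could not change the counts. At a q-value below 0.01 there were 28 higher and 5 lower, with a median log2 fold change of 0.45. That limit kept 84.9% of all listed genes. At a change of at least 1.5-fold, 9 were higher and 2 lower, with a median of 0.65, a setting that keeps fewer genes by construction. Without chromosomes 4, 7, 13 and 15, 29 were higher and 2 lower, with a median of 0.50. Those chromosomes were chosen for their lean in these data, and leaving them out also raises the share of higher genes among all listed genes. On them 16.8%, 33.0%, 13.5% and 19.8% of the listed genes were higher, against 50.7% of all listed genes. With the further lysosomal lists added, 84 genes were higher and 18 lower. In neither table were 16 of the 51 genes of the set and 57 of the 124 added genes. Leaving out the 9 genes that share 10% or more of their 50-base words with another gene, or whose exons overlap other genes over 10% or more with both strands summed, an alternative chosen after seeing the data, gave 22 higher and 4 lower and a median of 0.43. No paired analysis was possible because the values analysed here are the authors' fold changes and q-values, with none per sample; for the same reason no replicate could be left out. Unlisted genes and low-count genes cannot be judged without depth.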
